A study of Mus musculus with 12 samples.

Results

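Transcripts of 5 receptors through which sensory neurons respond to neurotrophic factors, Ret, Gfra1, Gfra3, Ngfr and Il6st, were followed in RNA of mouse dorsal root ganglia (DRG). The genes were chosen by name, their symbols were matched to mouse Ensembl identifiers, and all 5 were among the 9073 genes of the count table. The 4 groups were IP shGpr151, IP control, Input shGpr151 and Input control, each with 3 columns of counts. All came from adult RPL22HA+/+;Advillin-Cre+ mice, in which the Cre recombinase of the Advillin gene, active in sensory neurons, tags ribosomal protein L22 with haemagglutinin (HA). IP is RNA recovered with the tagged ribosomes by an anti-HA antibody, and Input is RNA of the lysate before that step, to which the other cells of the ganglion also contribute. The neurons of the shGpr151 groups received AAV-shGpr151, a virus carrying a hairpin RNA named for the orphan receptor gene Gpr151, and those of the control groups AAV-control. The series design states that sciatic nerve injury preceded the culture of the neurons, without naming an uninjured group, whereas the extraction protocol speaks of ganglia taken fresh. The sources used here do not give sex, exact age, virus dose, times or whether animals were pooled.

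Neurotrophic factors are secreted by the tissues that sensory axons reach and by injured nerve, and support survival, axon growth and pain sensitivity. Ligands of the GDNF family bind a GFRα receptor held to the membrane by a lipid anchor, and the pair then engages the tyrosine kinase Ret. Neurotrophins bind the p75 receptor, product of Ngfr, beside their kinase receptors, while cytokines such as LIF, CNTF and IL-6 act through gp130, product of Il6st, and STAT3. Ngfr and Gfra1 are also known from Schwann cells and other glia of injured nerve, so an Input count of these genes need not be neuronal.

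Over all genes, the 3 columns of a group agreed nearly to the noise of counting. Their chi-square per degree of freedom lay between 0.980 and 1.05 in 12 pairs, whereas 54 pairs of columns from different groups gave 1.80 to 156. The columns were therefore summed, each group stands for 1 sample, and no difference has a replicate check. The sums were 3285258 counts in the IP library labelled shGpr151, 4245486 in IP control, 6148538 in the Input library labelled shGpr151 and 6332991 in Input control. Gpr151 itself, which checks the label of the hairpin, had 250 counts in the IP library labelled shGpr151 and 314 in IP control, a log2 ratio of -0.0018 (-0.25 to 0.24). In Input it had 13 counts in the library labelled shGpr151 and 24 in control, a log2 ratio of -0.86 (-1.96 to 0.17). In IP the hairpin label thus did not go with less target RNA, and every direction given below for libraries with this label carries that limit. All intervals are at 95% and hold no error but that of counting. Reads copied by PCR and not marked by molecular identifiers are not independent, so even as counting intervals they may be too narrow.

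Upstream sequence was at hand for 3 of the 5 genes in the RefSeq promoter table (build GRCm38.p6, not the build of the counts). It is shown for Ngfr and Il6st, the pair of these 3 that differed most in ribosome association, and as a description only, since no promoter was assayed. The window of Gfra1 lies inside its annotated gene and is not shown. Each run holds the 250 bases before the gene's start, 5′ to 3′ on the gene's strand, and capitals mark matches to the GC box GGGCGG on either strand.
Ngfr, chr11:95587699-95587948, minus strand: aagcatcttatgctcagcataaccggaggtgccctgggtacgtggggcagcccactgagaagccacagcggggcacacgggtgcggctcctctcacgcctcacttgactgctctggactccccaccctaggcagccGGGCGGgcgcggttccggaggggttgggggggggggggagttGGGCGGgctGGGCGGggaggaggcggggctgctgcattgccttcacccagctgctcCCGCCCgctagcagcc
Il6st, chr13:112463820-112464069, plus strand: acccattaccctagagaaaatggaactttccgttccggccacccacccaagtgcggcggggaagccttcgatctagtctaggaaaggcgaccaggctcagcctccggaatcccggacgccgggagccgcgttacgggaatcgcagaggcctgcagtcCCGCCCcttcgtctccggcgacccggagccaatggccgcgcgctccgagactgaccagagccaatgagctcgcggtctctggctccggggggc
The Ngfr window held 4 GC boxes and the Il6st window 1, and 32.7% of 32851 such windows held at least 1. The STAT motif TTCNNNGAA, sought on both strands, had 0 matches in both windows, so no match overlapped a GC box, and occurred in 7.02% of all windows. G and C made up 70.4% of the Ngfr bases and 66.0% of the Il6st bases, against a median of 52.4% over all windows.

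Ret (ENSMUSG00000030110), the signalling kinase shared by the GDNF family, had 242, 231 and 240 counts in the columns of the IP library labelled shGpr151 and 286, 266 and 347 in IP control. Its Input columns held 24, 29 and 21 counts in the library labelled shGpr151 and 29, 27 and 24 in control. The raw IP columns under the hairpin label lay below those of control, in the smaller library, and overlapped with them once scaled to library totals, while the Input columns overlapped on both scales. Every IP column lay far above every Input column although the IP libraries were smaller. Scaled to counts-per-million of the library total (CPM), the level was 217 CPM (201 to 234) in the IP library labelled shGpr151, 212 CPM (198 to 226) in IP control, 12.04 CPM (9.45 to 15.1) in the Input library labelled shGpr151 and 12.6 CPM (10.02 to 15.7) in Input control. The third IP control column stood above the other two, and the coefficient of variation of the 3 columns was 14.1%, where counting alone gives 5.78%.

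Gfra1 (ENSMUSG00000025089), the GFRα receptor that binds GDNF, had 117, 106 and 126 counts in the columns of the IP library labelled shGpr151 and 155, 145 and 144 in IP control. The Input columns held 29, 37 and 28 counts in the library labelled shGpr151 and 30, 32 and 33 in control. Its level was 106 CPM (95.4 to 118) in the IP library labelled shGpr151 and 105 CPM (95.1 to 115) in IP control, so the lower raw counts under the hairpin label went with the smaller library. The Input levels were 15.3 CPM (12.4 to 18.7) under the hairpin label and 15.001 CPM (12.1 to 18.3) in control.

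Gfra3 (ENSMUSG00000024366), the GFRα receptor for artemin, had 30, 41 and 47 counts in the columns of the IP library labelled shGpr151 and 55, 58 and 73 in IP control. Its Input columns held 6, 3 and 5 counts in the library labelled shGpr151 and 11, 12 and 11 in control. The Input columns of the 2 labels did not overlap, while those of IP did once scaled to the smaller total of the library labelled shGpr151. As the columns of a group count as 1 sample, their separation is no replicate check. The share of all genes with such separation was not counted. On the CPM scale the levels were 35.9 CPM (29.7 to 43.0) in the IP library labelled shGpr151, 43.8 CPM (37.7 to 50.6) in IP control, 2.28 CPM (1.24 to 3.82) in the Input library labelled shGpr151 and 5.37 CPM (3.72 to 7.50) in Input control. Gfra3 had the fewest counts of the 5 genes in every library, and its 14 and 34 Input counts limit how firmly anything can be said of it.

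Ngfr (ENSMUSG00000000120), the p75 receptor that modulates Trk signalling and can act on its own through its death domain, had 83, 86 and 99 counts in the columns of the IP library labelled shGpr151 and 92, 122 and 97 in IP control. In Input the counts were 22, 40 and 28 in the library labelled shGpr151 and 29, 30 and 34 in control. The columns of both labels overlapped in IP and in Input. The levels were 81.6 CPM (72.1 to 92.0) in the IP library labelled shGpr151, 73.3 CPM (65.3 to 81.9) in IP control, 14.6 CPM (11.8 to 17.99) in the Input library labelled shGpr151 and 14.7 CPM (11.9 to 17.99) in Input control.

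Il6st (ENSMUSG00000021756), the gp130 subunit shared by receptors of the IL-6 cytokine family, had 112, 121 and 91 counts in the columns of the IP library labelled shGpr151 and 129, 113 and 111 in IP control. In Input they were 10, 13 and 8 in the library labelled shGpr151 and 18, 17 and 6 in control. The third Input control column lay below all Input columns of the hairpin label, and the columns overlapped. The levels were 98.6 CPM (88.2 to 110.0) in the IP library labelled shGpr151, 83.1 CPM (74.7 to 92.3) in IP control, 5.04 CPM (3.43 to 7.16) in the Input library labelled shGpr151 and 6.47 CPM (4.65 to 8.78) in Input control.

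**Figure D1:**
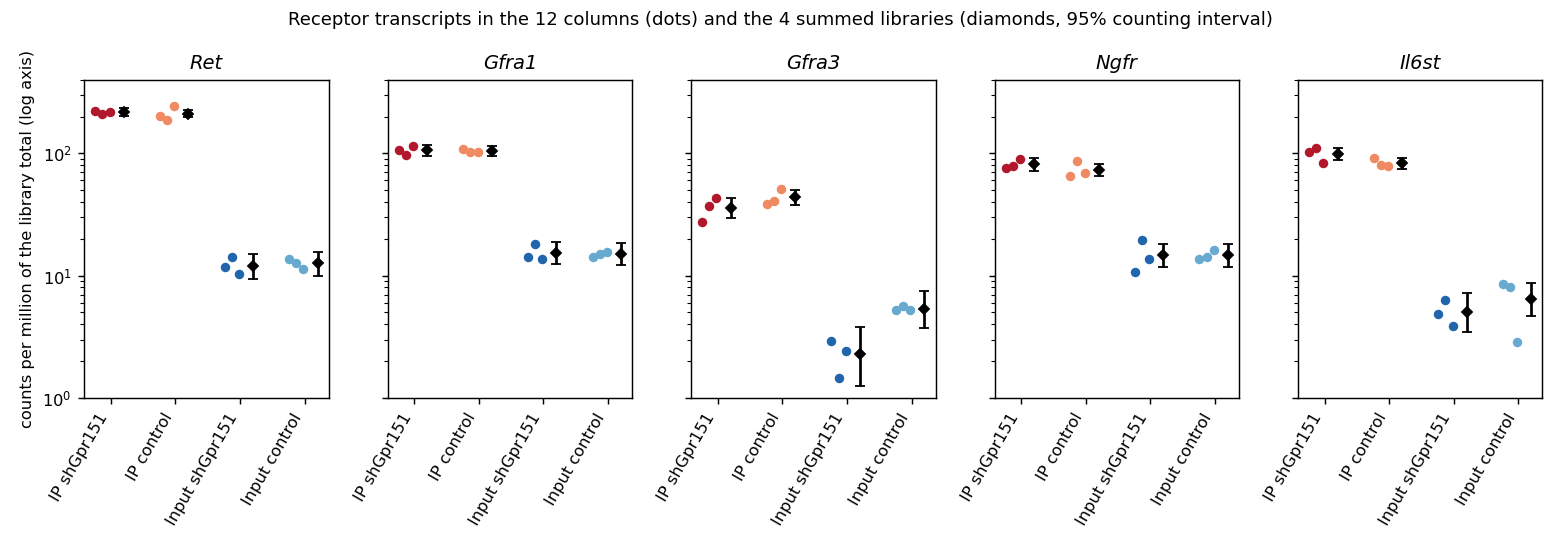
Levels in CPM of the library total on a log axis for the 5 receptors, with dots for the 3 columns of each group and diamonds with 95% counting intervals for the summed library. All IP levels lie above all Input levels, and the labels shGpr151 and control lie apart most for Gfra3 in Input, at 2.28 and 5.37 CPM.

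On the scale of library totals, both IP levels of each of the 5 genes stood above both Input levels, with intervals that did not meet. Within IP and within Input the intervals of the neighbouring levels overlapped for every gene, for Gfra3 in Input by a margin of 3.72 to 3.82 CPM. No level was compared between genes, because transcript lengths were not analysed. All 5 genes passed the filter on low counts, which needs about 5.77 CPM in enough columns. In IP all 5 reached that value in all 6 columns, whereas in Input 3 did so and Gfra3 reached it in 0 columns, so Gfra3 entered the tested set through IP alone.

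The comparison of IP with Input asks which transcripts were enriched on the tagged ribosomes of sensory neurons. Ret and Il6st were enriched past 2-fold under both labels and Gfra3 under the hairpin label, Gfra1 was enriched moderately, and Ngfr stood close to the typical gene. In these bulk libraries fewer cells of a type and less RNA per cell cannot be told apart. Ratios are of summed counts over library sizes scaled by the trimmed mean of M values (TMM), which sets the typical gene near 0. A gene was counted as past 2-fold where its ratio was at least 2-fold and its interval left out 0. For IP over Input under the hairpin label, Il6st had a log2 ratio of 2.096 (1.56 to 2.68), Ret 1.98 (1.63 to 2.34), Gfra3 1.79 (0.98 to 2.70), Gfra1 0.60 (0.27 to 0.95) and Ngfr 0.28 (-0.066 to 0.65). In control, Ret had 1.89 (1.56 to 2.24), Il6st 1.51 (1.04 to 2.01), Gfra3 0.86 (0.32 to 1.43), Gfra1 0.63 (0.31 to 0.96) and Ngfr 0.15 (-0.19 to 0.50). Past 2-fold were thus 3 of the 5 under the hairpin label, where 25.7% of all 8312 tested genes were higher and 26.5% lower, and 2 of the 5 in control, where 23.1% were higher and 25.1% lower. None of the 5 was lower. Gfra3 had passed the filter through IP alone, which favours a high ratio, and Il6st reached the filter's level in 1 of 3 Input columns under the hairpin label and 2 of 3 in control. Without Gfra3, Ret and Il6st are the 2 past 2-fold under each label. In control Gfra3 was past 2-fold without the first IP control column, at 1.03. In the same comparison 4 of the 5 were called, Gfra1 and Gfra3 in addition, at a limit of 1.5-fold, where 30.5% of tested genes were higher. The same 4 were called on the 12 columns by edgeR (32.5% of genes higher), by DESeq2 (27.3%), and with an assumed biological variation of 10% (28.0%).

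**Figure D2:**
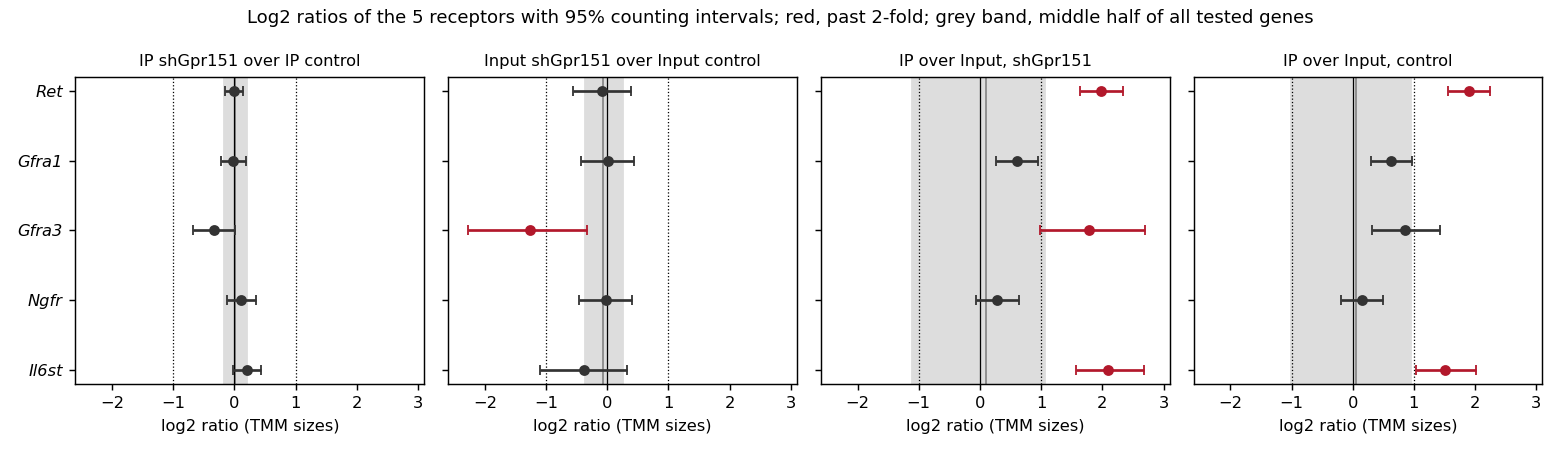
Log2 ratios of the 5 receptors on TMM sizes with 95% counting intervals in 4 comparisons, with a grey band between the quartiles of all 8312 tested genes 2-fold as dotted lines and red for ratios past 2-fold. Ret and Il6st lie outside the band in both comparisons of IP with Input, and Gfra3 under the hairpin label. Between the labels Gfra3 lies below the band in Input, at -1.26, and in IP, at -0.33. Il6st lies just outside it, at -0.38 in Input and 0.20 in IP.

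Set against all tested genes, Ret stood above 89.6% of them under the hairpin label and 91.1% in control, and Il6st above 90.8% and 86.2%. Ngfr stood near the middle, above 54.6% under the hairpin label and 52.4% in control, and Gfra1 above 63.5% and 66.5%. The choice of scale matters for these directions. TMM sizes lower every log2 ratio of IP over Input by 2.19 under the hairpin label and by 2.17 in control relative to library totals. On totals all 5 genes were past 2-fold higher, with Ngfr at 2.48 under the hairpin label and 2.32 in control. On that scale 76.1% of all tested genes were higher past 2-fold and 8.23% lower under the hairpin label, and 77.6% and 8.10% in control.

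The differences between the 5 genes do not depend on any library size, because both genes of a pair share their libraries. The 10 pairs were compared by the log2 of the ratio of their IP to Input ratios, and in 5 the interval left out 0 under both labels. Ret exceeded Ngfr by 1.69 (1.21 to 2.18) under the hairpin label and 1.75 (1.28 to 2.22) in control. Ret also exceeded Gfra1, the co-receptor it signals with, by 1.38 (0.90 to 1.85) under the hairpin label and 1.27 (0.81 to 1.73) in control. Gfra3 exceeded Ngfr by 1.501 (0.63 to 2.37) under the hairpin label and 0.71 (0.086 to 1.33) in control. As Gfra3 had passed the filter through IP alone, which favours a high ratio, this pair carries that limit. Ngfr minus Il6st was -1.81 (-2.44 to -1.18) under the hairpin label and -1.36 (-1.94 to -0.79) in control. Gfra1 minus Il6st was -1.49 (-2.12 to -0.87) under the hairpin label and -0.88 (-1.45 to -0.32) in control. In each of these 5 pairs, and so also without the pair that holds Gfra3, the less enriched gene was Ngfr or Gfra1. Ret minus Il6st, in contrast, was -0.12 (-0.75 to 0.52) under the hairpin label and 0.38 (-0.19 to 0.96) in control, so their order was not resolved. Ret minus Gfra3 was 0.19 (-0.68 to 1.06) under the hairpin label, where it was not resolved, and 1.04 (0.42 to 1.66) in control. The order of Gfra3 and Il6st was not resolved under either label, with Gfra3 minus Il6st at -0.31 (-1.27 to 0.65) under the hairpin label and -0.65 (-1.36 to 0.050) in control.

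The enrichment of the 5 receptors was set beside that of marker genes for the cells of the ganglion. Of all tested genes, 25.7% were past 2-fold higher in IP and 26.5% lower under the hairpin label, and 23.1% and 25.1% in control. The counts per list below are to be read against these shares, and no list was tested against them. Of 20 pan-neuronal genes 16 were past 2-fold higher in IP and 0 lower under the hairpin label, with a median log2 ratio of 2.04, and 15 and 0 in control, with a median of 1.83, where all tested genes had medians of 0.099 and 0.056. Some listed genes, like Gfra3, passed the filter through IP alone, which favours a high ratio and can raise these counts and medians. How many did so was not counted. Ret differed from the neuronal median by -0.061 (-0.41 to 0.30) under the hairpin label and 0.062 (-0.27 to 0.41) in control, with the median taken as fixed. Il6st differed from it by 0.056 (-0.48 to 0.64) under the hairpin label and -0.32 (-0.79 to 0.18) in control. Ngfr lay below that median, at a difference of -1.76 (-2.11 to -1.39) under the hairpin label and -1.69 (-2.03 to -1.34) in control, and Gfra1 at -1.44 (-1.77 to -1.09) and -1.20 (-1.53 to -0.87). Gfra3 differed from it by -0.25 (-1.06 to 0.66) under the hairpin label and lay below it in control, at -0.98 (-1.51 to -0.40). By neuron type, genes past 2-fold higher were 4 of 6 for peptidergic nociceptors, 4 of 5 for non-peptidergic neurons, a list that holds Ret, and 6 of 8 for mechanoreceptors and proprioceptors under the hairpin label, and 4, 4 and 4 in control. Satellite glia markers were also found in IP, with 8 of 13 past 2-fold higher and 2 lower under the hairpin label, median 1.24, and 6 and 3 in control, median 0.90. Satellite glia markers were thus, like neuronal genes, more often past 2-fold higher than lower. Schwann cell markers, a list that holds Ncam1, had 1 of 9 higher and 4 lower under the hairpin label, median 0.095, and 2 and 4 in control, median -0.16. These markers went both ways, as the myelin protein genes show, with Mbp at -1.82 (-2.12 to -1.52) under the hairpin label and -1.98 (-2.25 to -1.72) in control, and Pmp22 at 0.74 (0.57 to 0.92) and 0.85 (0.68 to 1.03). Macrophage markers had 2 of 11 higher and 7 lower under the hairpin label and 1 and 8 in control, fibroblast markers 5 of 9 higher and 0 lower and then 3 and 1, and endothelial and mural markers 1 of 7 higher and 3 lower under each label.

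**Figure D3:**
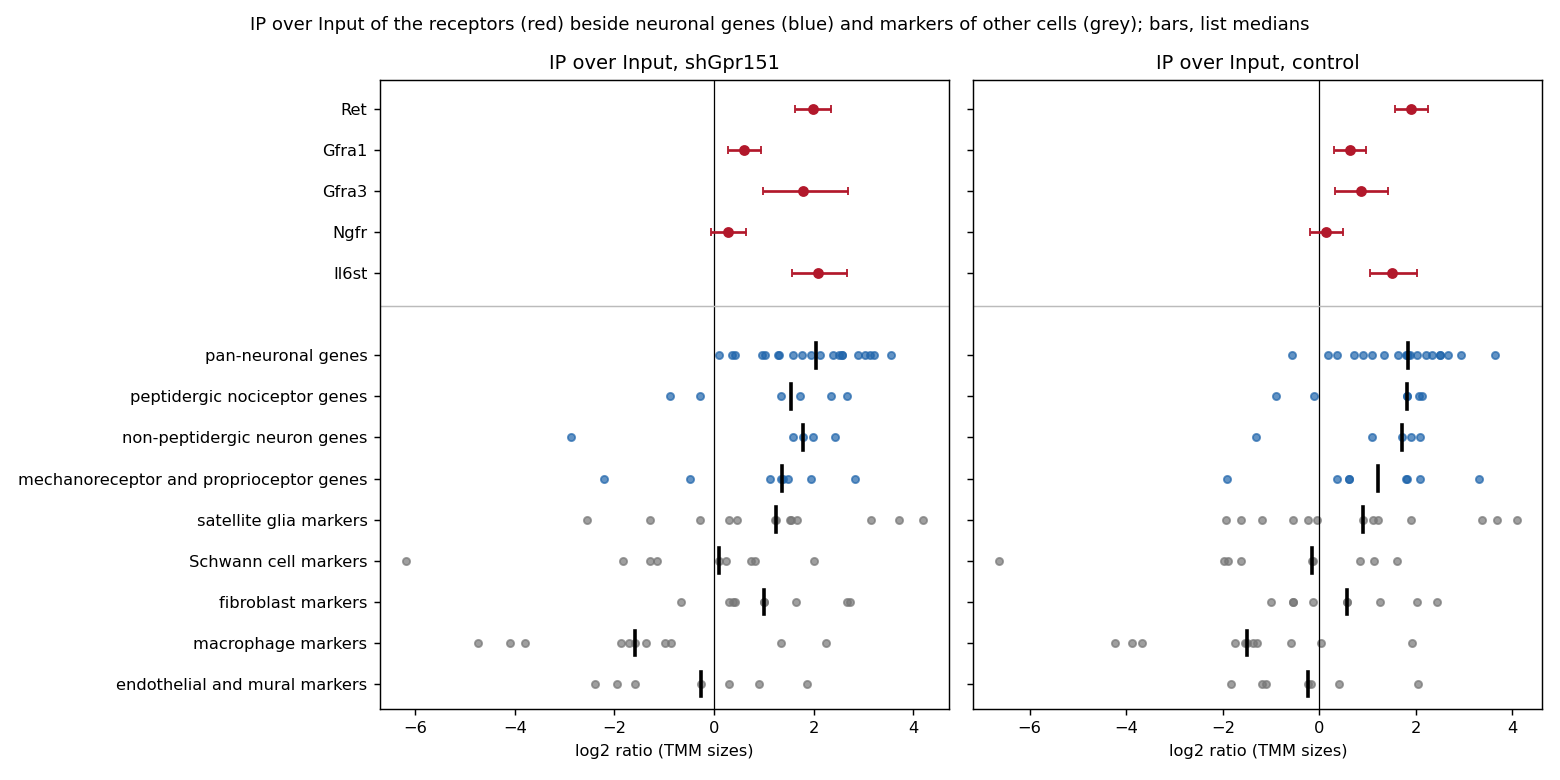
Log2 ratios of IP over Input on TMM sizes, under the hairpin label on the left and in control on the right, for the 5 receptors with 95% counting intervals (red), genes of neuron types (blue) and markers of other cells (grey), with a bar at each list's median. Ret and Il6st lie near the pan-neuronal medians of 2.04 and 1.83, Ngfr and Gfra1 lie below both, and Gfra3 lies below the median in control.

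Summed over the 13 satellite glia markers with a row, the level was 3205 to 3304 CPM over the columns of the IP library labelled shGpr151, 3102 to 3177 CPM in IP control, 486 to 499 CPM in the Input library labelled shGpr151 and 512 to 526 CPM in Input control. Over the 10 Schwann cell markers it was 775 to 817, 737 to 772, 327 to 351 and 384 to 396 CPM in that order of libraries. These levels are on library totals, so IP above Input in them is not by itself enrichment beyond the typical gene. On totals 76.1% of all tested genes were past 2-fold higher in IP under the hairpin label and 77.6% in control. Every gene of the table has at least 1 count in each column, so no marker in it is at 0, while the satellite glia markers Gfap and Slc1a3 and the Schwann cell markers Prx, Ncmap and Drp2 have no row. The part of glial RNA in the levels of Ngfr and Gfra1 was not tested.

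Setting the 2 IP libraries against each other asks which transcripts on tagged ribosomes differed with the hairpin. Of the 5 receptors 0 were past 2-fold, and 0.289% of tested genes were higher and 0.229% lower by that rule. Ret had a log2 ratio of -0.0073 (-0.15 to 0.14) and Gfra1 of -0.020 (-0.23 to 0.19), so changes beyond 1.14-fold upward or below 0.855 of control lie outside the counting interval of Gfra1. Ngfr had 0.11 (-0.13 to 0.35). Il6st had 0.20 (-0.019 to 0.43) and Gfra3 -0.33 (-0.67 to 0.011), each with an interval that just reached 0. Summed over the 5 genes there were 1772 counts in the IP library labelled shGpr151 and 2193 in IP control, a log2 ratio of 0.020 (-0.072 to 0.11).

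In Input, Gfra3 was the 1 receptor of the 5 past 2-fold, lower in the library labelled shGpr151 at a log2 ratio of -1.26 (-2.27 to -0.32), which is 0.418 of control (0.207 to 0.799). By the same rule 1.59% of all tested genes were higher and 2.01% lower, and Gfra3 stood above 1.40% of them. Its ratio rests on 14 counts against 34. The alternatives differed on it. On the 12 columns edgeR, which compares these libraries only, called it lower, where 8.66% of genes were called lower. DESeq2 on the 12 columns did not call it, where 5.80% of genes were called lower, nor did edgeR with an assumed biological variation of 10% (0.241%) or 20% (0.0120%). Ret had -0.091 (-0.57 to 0.38), Gfra1 0.0059 (-0.42 to 0.43), Ngfr -0.026 (-0.46 to 0.41) and Il6st -0.38 (-1.10 to 0.33). At 31 Input counts for Il6st under the hairpin label, neither equal levels nor a 2-fold reduction could be told from its value. Pan-neuronal genes had a median log2 ratio of -0.24 in the same comparison, with 0 of 20 past 2-fold, against a median of -0.066 over all tested genes, and 1 of 13 satellite glia markers, Cdh19, was past 2-fold lower, at -2.15 (-3.47 to -1.02). Their part in the Gfra3 value was not tested.

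Whether the label went with ribosome association beyond Input was measured as the IP log2 ratio minus the Input log2 ratio. None of the 5 was past 2-fold, where 4.36% of tested genes were higher and 2.62% lower. Gfra3 had 0.93 (-0.028 to 1.89) and Il6st 0.59 (-0.12 to 1.29), both with intervals that included 0. The Gfra3 value is made up of -0.33 in IP and -1.26 in Input. It was past 2-fold without the first column of the IP library labelled shGpr151, at 1.02, and with library sizes from genes with a mean of at least 20 counts, at 1.01, where 5.13% of such genes were higher. Ngfr had 0.14 (-0.34 to 0.62), Ret 0.084 (-0.39 to 0.56) and Gfra1 -0.026 (-0.48 to 0.43).

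Of 23 receptors considered in the GDNF, neurotrophin and gp130 families, 15 had a row and 13 were tested, the 5 above and 8 others. Among the 8, the ratio of the IP libraries was above 0 in 7 and that of the Input libraries below 0 in 6, with 0 past 2-fold in both. Their medians were 0.21 in IP and -0.47 in Input, beside 0.0035 and -0.066 over all tested genes. Of all tested genes 0.289% were past 2-fold higher and 0.229% lower in IP, and 1.59% and 2.01% in Input. Lifr, the LIF receptor that pairs with gp130, had 4023 counts in the IP library labelled shGpr151 and 3685 in IP control, a log2 ratio of 0.45 (0.39 to 0.52). Its Input counts were 139 under the hairpin label and 195 in control, a log2 ratio of -0.47 (-0.79 to -0.15). For the other 7 receptors both intervals included 0. Il6st, the partner of Lifr, had ratios of the same signs, at 0.20 and -0.38, with intervals that included 0. Fibroblast markers, summed over 9 genes, stood at 1893 to 1956 CPM over the columns of the IP library labelled shGpr151 and 1543 to 1590 CPM in IP control, and at 331 to 349 CPM and 370 to 403 CPM in Input. Their part in the values of Lifr was not tested.

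**Figure D4:**
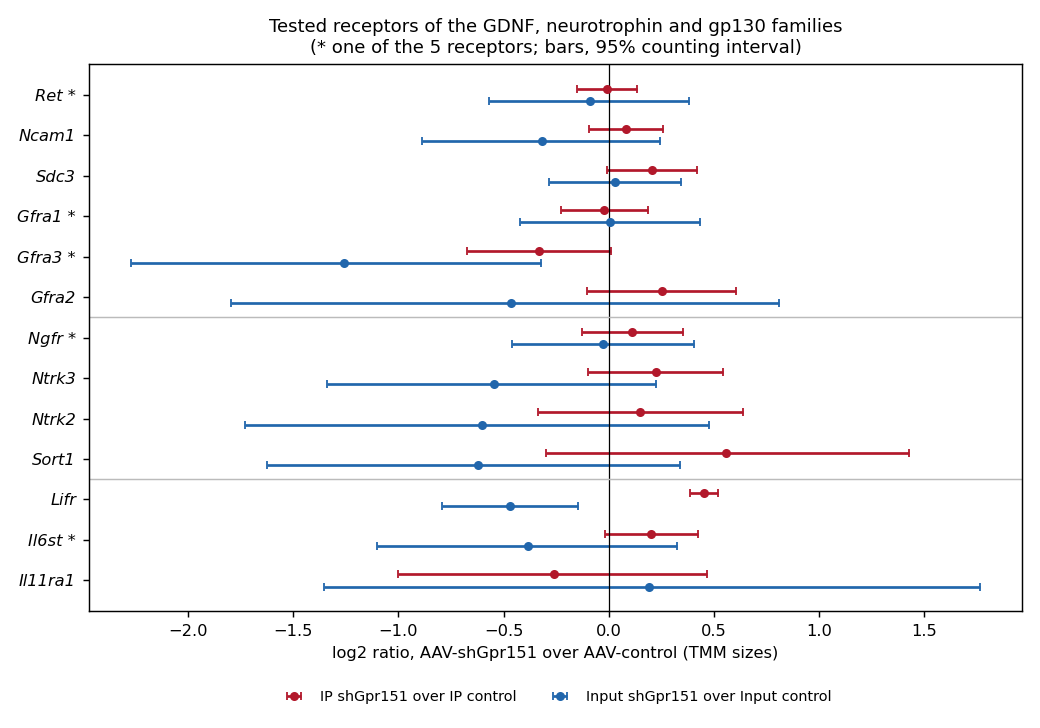
Log2 ratios of libraries labelled shGpr151 over control on TMM sizes for 13 tested receptors of 3 families, in IP (red) and in Input (blue), with 95% counting intervals and asterisks at the 5 receptors of the main account. Lifr has intervals above 0 in IP and below 0 in Input, and Gfra3 lies lowest in Input.

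Trk kinases carry the neurotrophin signal that Ngfr modulates, and the log2 ratios of IP over Input of Ntrk3 and Ntrk2 stood above that of Ngfr under both labels, a difference that was not tested. Ntrk3, the receptor of neurotrophin-3, had 1.39 (0.77 to 2.06) under the hairpin label and 0.62 (0.10 to 1.17) in control, and Ntrk2, the receptor of BDNF, 1.12 (0.25 to 2.10) and 0.37 (-0.36 to 1.15). Gfra2, the neurturin receptor that also signals through Ret, had 2.42 (1.497 to 3.52) under the hairpin label and 1.71 (0.91 to 2.61) in control, on 10 and 14 Input counts. Gfra2 passed the filter through IP, which favours a high ratio, as did Ntrk2 on 13 and 20 Input counts. The neural adhesion molecule Ncam1, an alternative GDNF receptor, had 2.01 (1.58 to 2.46) under the hairpin label and 1.61 (1.23 to 2.01) in control, whereas Sdc3, a heparan sulphate proteoglycan, had -0.25 (-0.52 to 0.024) and -0.42 (-0.69 to -0.16).

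Among ligands, 7 of 18 listed genes were tested. Bdnf, which sensory neurons make themselves, had 380 counts in the IP library labelled shGpr151 and 516 in IP control, and 24 in each Input library. At those Input counts Bdnf passed the filter through IP, which favours a high ratio. Its log2 ratio of IP over Input was 2.69 (2.10 to 3.35) under the hairpin label and 2.83 (2.24 to 3.49) in control, and it was the 1 ligand past 2-fold higher. Igf1, a growth factor with many sources outside neurons, was the 1 past 2-fold lower, at -2.16 (-2.65 to -1.67) under the hairpin label and -2.36 (-2.88 to -1.85) in control. Between the labels, 0 of the 7 were past 2-fold in IP or in Input. Over all tested genes, 0.289% were past 2-fold higher and 0.229% lower in IP, and 1.59% and 2.01% in Input.

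Of 184 genes listed for the pathways of these receptors, ligands, other receptors and target genes included and the 5 receptors left out, 132 were tested. In IP over Input 52 were past 2-fold higher and 17 lower under the hairpin label, with a median of 0.58, where 25.7% and 26.5% of all tested genes were, and 46 and 18 in control, with a median of 0.36, where 23.1% and 25.1% were. Between the IP libraries 3 were past 2-fold higher under the hairpin label and 0 lower, with a median of 0.056, beside 0.289% and 0.229% of all tested genes. They included Frs2, a docking adaptor of Trk and FGF receptors, on 25 counts against 14, and Pik3r2, a regulatory subunit of PI3 kinase, on 26 against 11. Between the Input libraries 1 was higher and 4 lower, with a median of -0.18, beside 1.59% and 2.01% of all tested genes. Bex3, a protein that binds the p75 receptor, was higher at 1.16 (0.998 to 1.31) on 1047 counts against 477. The 4 lower were Adam17, a protease that sheds the ectodomain of p75, at -1.10 (-1.79 to -0.44), the kinase gene Gsk3a at -1.09 (-1.86 to -0.37), Stat5b at -1.10 (-2.28 to -0.020) and the ubiquitin ligase gene Cbl at -1.56 (-3.38 to -0.031). In that order their Input counts were 29 under the hairpin label against 63, 24 against 52, 11 against 24 and 5 against 15. Between the IP libraries their log2 ratios were -0.87, -0.31, 0.051 and 0.33.

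The counts by group are to be read against the shares of all tested genes past 2-fold in IP over Input, 25.7% higher and 26.5% lower under the hairpin label and 23.1% and 25.1% in control, and no group was tested against them. Some genes of these groups passed the filter through IP alone, which favours a high ratio. The JAK-STAT genes and their inhibitors through which gp130 signals had 5 of 16 past 2-fold higher in IP than in Input and 3 lower under the hairpin label, and 5 and 2 in control. Jak1, a kinase bound to gp130, had 1.73 (1.40 to 2.07) under the hairpin label and 1.61 (1.30 to 1.93) in control, and Socs3, an inhibitor induced by STAT3, 2.06 (1.60 to 2.55) and 2.36 (1.85 to 2.91). Stat3 itself had -0.67 (-0.87 to -0.47) and -0.77 (-0.94 to -0.59) in the same order. Between the IP libraries Stat3 had -0.16 (-0.33 to 0.00049) and Socs3 0.068 (-0.12 to 0.26). Partners of Ngfr had 3 of 15 higher in IP and 7 lower under the hairpin label, and 3 and 8 in control, with Maged1, an adaptor of p75, at 2.12 (1.90 to 2.34) and 1.60 (1.41 to 1.80) and Psenen, a subunit of the γ-secretase that cleaves p75, at -1.97 (-2.07 to -1.87) and -1.93 (-2.03 to -1.84). The adaptors and Ras-MAPK genes shared by Ret and Trk had 8 of 27 higher and 1 lower under the hairpin label and 8 and 2 in control, and the PI3K, AKT and phospholipase genes 8 of 16 higher and 0 lower and then 8 and 1. Injury-induced and STAT3 target genes had 10 of 18 higher and 3 lower under the hairpin label and 10 and 2 in control. Between the labels 0 of 18 were past 2-fold in IP or in Input. By that rule 0.289% of all tested genes were higher and 0.229% lower in IP, and 1.59% and 2.01% in Input. Genes of receptor trafficking had 8 of 18 higher and 1 lower under the hairpin label and 5 and 1 in control. Growth factor receptors of other families had 3 of 8 higher and 1 lower under each label.

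The genes whose pattern over the 4 summed libraries lay nearest to each receptor were sought by Euclidean distance between centred log2 CPM among genes with at least 200 counts. Nearest to Ret were Utp23, Cttn and Arf6, at distances from 0.038 to 0.062, and 470 of 5489 genes lay within 0.5. Nearest to Gfra1 were Nudt21, Clta and Adipor2, at 0.016 to 0.039, with 935 genes within 0.5. For Ngfr they were Aptx, Plin2 and Nup62, at 0.021 to 0.037, with 921 genes within 0.5. For Il6st they were Map7d1, Ncoa1 and Maged1, at 0.069 to 0.080, with 475 within 0.5. Gfra3 had the fewest neighbours, 74 genes within 0.5, with Cdk14, Crmp1 and Magi1 at 0.093 to 0.16. Crmp1 had 134 and 186 counts in IP under the hairpin label and in control, and 14 and 34 in Input, where Gfra3 had 118 and 186 and then also 14 and 34. Such distances rest on 4 values a gene and describe these libraries alone.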

How the data were processed

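Nanopore cDNA-PCR libraries were made from anti-HA IP and Input RNA, per the labels' protocols, and the submitters' processing notes name minimap2, Salmon, GRCm39 and mm39, with no versions. The authors deposited raw counts, whole numbers for each of 9073 Ensembl identifiers, of which 9061 matched a symbol, and the lowest value is 1. The sources used here do not say how reads of overlapping or similar genes were counted or whether strand was used. The labels do not say whether columns of a group came from separate animals or cultures.

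The members, gene lists and tests were chosen with earlier results of these data known. The planned test was the quasi-likelihood test of edgeR 4.0.16 (R 4.3.3) with TMM sizes and the filterByExpr filter (minimum count 10), passed by 8312 genes. As the columns of a group agreed nearly to counting noise (common biological coefficient of variation, BCV, 1.22%), the counts were summed per group as the design foresaw, and no p-value of a gene is given. Ratios have exact conditional binomial intervals, levels exact Poisson intervals, and differences of ratios Wald intervals. Column totals ran from 1094523 to 2111544. Named are the 5 receptors, Gpr151, up to 4 genes per list with the highest counts, genes past 2-fold between the labels, and the 3 nearest patterns per receptor. Gfra2 and Ntrk2 were among the highest counts of a list and were printed with their values seen. The marker genes without a row were also named, chosen with the results seen. Alternatives were RLE sizes (as in DESeq2), totals, other filters, DESeq2 1.42.0, edgeR on 12 columns with and without a replicate block, an assumed BCV of 10% or 20%, 1.5-fold, and each column left out. Results of some single genes are not reported here. The scripts were tested on simulated data. Figures were drawn with matplotlib 3.10.9.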

Additional observations from a re-analysis of the deposited data

Results flagged for a closer look

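Lifr is given here because its ratio between libraries labelled shGpr151 and control differed between IP and Input by more than counting error. The IP log2 ratio minus the Input log2 ratio was 0.92 (0.60 to 1.24), not past 2-fold. With 1 sample a group this interval compares the 4 libraries, and over all tested genes the median of this difference was 0.059. Intervals that left out 0 were not particular to Lifr, as Maged1 had 0.51 (0.23 to 0.80) and Bex3 -1.38 (-1.63 to -1.13). The share of all tested genes with such an interval was not counted.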

How the results depend on the processing

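Of 450 recomputed ratios of the 5 receptors, 440 stayed inside the counting interval of the reported value, 10 lay outside it, all on library totals for IP over Input, and 0 ratios past 2-fold changed sign. On totals, 5 of the 5 were past 2-fold in IP over Input under the hairpin label and 5 in control. In IP over Input in control, 4 were called at 1.5-fold (30.5% of tested genes higher), 4 by edgeR on 12 columns (32.5%), 4 by edgeR with the replicate block (32.5%), 4 by DESeq2 (27.3%) and 4 with an assumed BCV of 10% (28.0%). The additional calls were Gfra1 and Gfra3. Under the hairpin label the same alternatives called 4 of the 5 in place of 3, with Gfra1 in addition, where 32.1%, 33.6%, 33.7%, 28.1% and 29.8% of genes were higher in the same order of alternatives. In Input, where Gfra3 was past 2-fold, edgeR on 12 columns also called it, with and without the replicate block (8.66% of genes lower each). There DESeq2 called 0 of the 5 (5.80% of genes lower), and an assumed BCV of 10% (0.241%) or 20% (0.0120%) also left 0. The cause was not tested. Requiring a mean of at least 20 counts put Gfra3 past 2-fold for the IP minus Input difference, at 1.01, a count of 1. Leaving out each column in turn gave 0 to 1 for that difference, 2 to 3 for IP over Input in control, 3 in every case under the hairpin label, 1 in every case for Input and 0 in every case for IP. For Gfra3 in Input these ratios ran from -1.48 to -1.03.

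The replicate numbers of the titles gave no sign of pairing. Deviations of same-numbered columns from their group means correlated between -0.012 and 0.018 in 18 pairs, 0 of them above 0.1, and 2 of 12 columns correlated best with their own number. With the replicate block edgeR called 315 genes higher and 421 lower between the IP libraries, and without it 309 and 413, and it called the same number of the 5 receptors in every comparison.

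The Input counts of 14 to 95 per receptor limit every ratio that uses Input, and variation between animals or cultures is not measured here.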
